A study of Mus musculus with 12 samples.

Results

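Glucocorticoids are the hormones that the adrenal cortex releases under stress and over the day, and the RNA of the genes they induce is a common readout of hormone exposure in brain tissue. The 10 genes described here are the receptors Nr3c1 and Nr3c2, the receptor co-chaperone Fkbp5, and 7 genes known to be induced by the hormone: Sgk1, Tsc22d3, Zbtb16, Errfi1, Plin4, Mt1 and Mt2. They were chosen by name, for this known role but with earlier results of these data known, out of 17202 genes in the deposited table. Each of the 10 was found once. All 10 also passed the filter on low values, a mean normalized count of at least 10, which 17111 genes passed.

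Corticosterone, the main glucocorticoid of mice, enters cells and binds the mineralocorticoid receptor (encoded by Nr3c2) with high affinity and the glucocorticoid receptor (Nr3c1) with lower affinity. The bound receptors move to the nucleus, bind glucocorticoid response elements in DNA and switch on targets such as Sgk1, Tsc22d3 and Fkbp5. The product of Fkbp5 in turn lowers the affinity of the receptor for the hormone, which makes it a feedback gene. Transcripts of these genes also differ between cell types, and several of them respond to other signals, among them synaptic activity, metals and growth factors.

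RNA-seq of the cortex was available for 12 mice, 3 in each of 4 groups: wild-type and CD mice on vehicle (VEH-WT and VEH-CD), and both genotypes on the co-treatment (VERCUR-WT and VERCUR-CD). CD mice carry a heterozygous deletion of a chromosome 5 interval running from Gtf2i to Fkbp6, and model Williams-Beuren syndrome. VERCUR stands for verapamil, which blocks L-type calcium channels, given together with curcumin, a polyphenol of turmeric. The labels name the strain C57Bl6, call the control mice untreated, put dissection at 16 weeks of age and give daily doses per kg of 60 mg for curcumin and 10 mg for verapamil, from 8 weeks of age and for 1 month. The methods of the study describe male mice from a cross of CD mice with a line carrying Thy1-YFP, controls that drank water with DMSO, a lower verapamil dose and an earlier end, so that the dose and the age are uncertain. Per the methods, behavioral tests of social interaction, marble burying and the rotarod came before dissection, while the treatment went on. The hour of dissection and corticosterone levels are not given in the sources used here. Replicates are labelled by number alone, and p-values measure the spread between these 12 samples.

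The value of a gene is its normalized count, the number of reads counted on it divided by 1 factor per mouse. Between 40290000 and 56480000 reads were counted per mouse, and within a group the profiles of 2 mice correlated at r = 0.986 to 0.994. The labels of genotype fitted the data: the 19 genes listed from the deleted interval had a median of 0.468 to 0.53 of the VEH-WT mean in the 6 CD mice and of 0.959 to 1.04 in the 6 wild-type mice. Cortical neuron markers, Slc17a7 and Gad1 among them, were high in every mouse, with a summed normalized count of 137200 to 153800. Markers of striatal neurons were uneven within every group, with 1 mouse of each 3 (the mice numbered 3 of VEH-WT and VERCUR-WT and those numbered 1 of VEH-CD and VERCUR-CD) at 16640 to 22330 and the other 8 mice at 4886 to 11090. In such bulk tissue, fewer cells of a type and less RNA per cell cannot be told apart.

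Differences were tested with limma on log2(normalized count + 1) over all 17111 genes. A gene was called when its Benjamini-Hochberg adjusted p was under 0.05 and its level differed by more than 25% in either direction, the limits of the study. In VEH-CD against VEH-WT, 0 of the 10 genes were called (limma), where 0.257% of all genes tested were called. Unadjusted p-values were under 0.05 for 3 of the 10 (Sgk1, Tsc22d3 and Errfi1), all lower in VEH-CD, beside 11.8% of all genes in either direction and 6.73% lower. The groups of 3 mice did not overlap for 4 of the 10 (these 3 and Nr3c1), beside 20.6% of all genes. The median log2 fold change of the 10 was -0.25 and that of all genes -0.00.

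**Figure D1:**
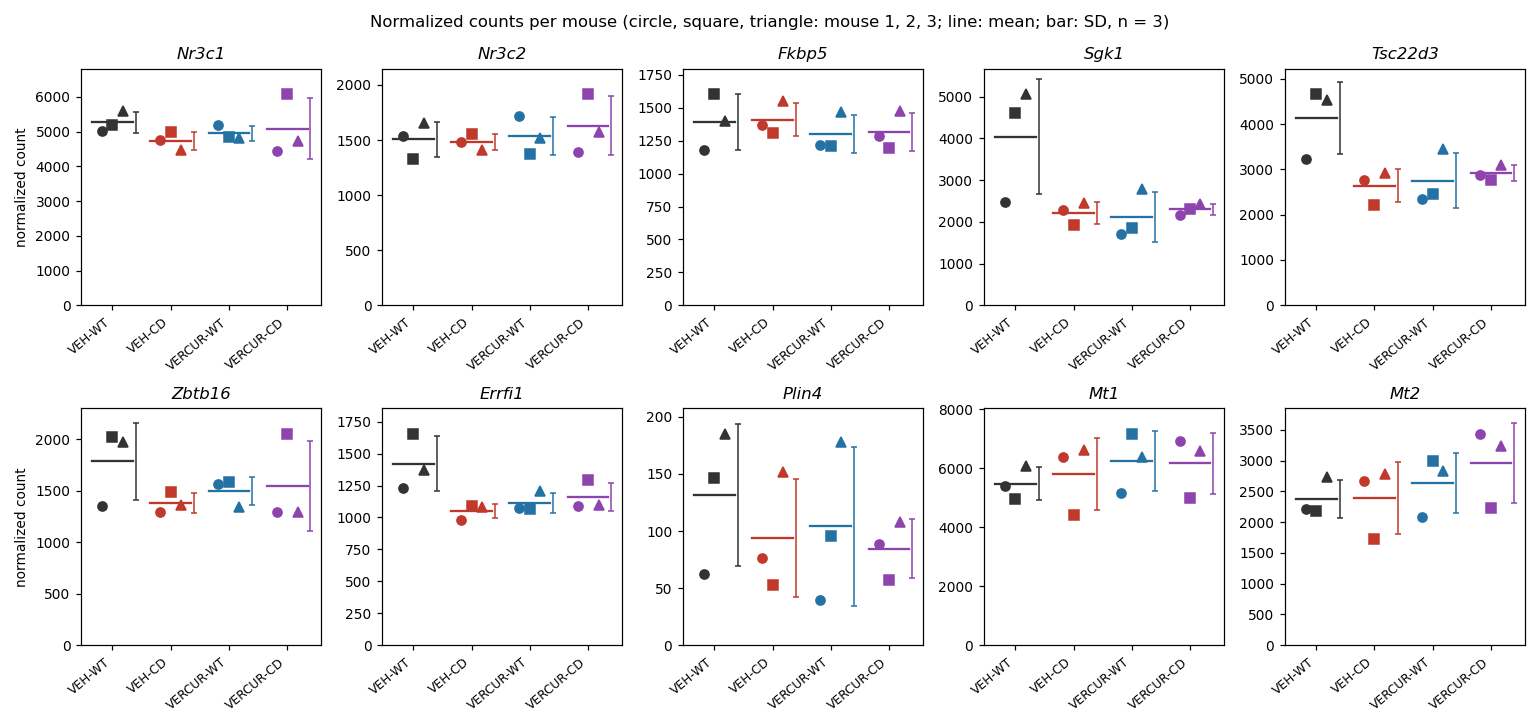
Normalized count (vertical axis, from 0) of each of the 10 genes in each of the 12 mice, by group; circles, squares and triangles are mice 1, 2 and 3, lines are group means and bars the SD (n = 3). In the panels of Sgk1 and Tsc22d3, VEH-WT mice 2 and 3 stand above the other 10 mice, while the panels of Fkbp5, Mt1, Mt2 and Nr3c2 show overlapping groups.

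Among the receptors, Nr3c1, on chromosome 18, had normalized counts of 5028, 5178 and 5606 in VEH-WT and of 4760, 4986 and 4473 in VEH-CD. Every VEH-CD mouse lay below every VEH-WT mouse, by a narrow margin of 4986 to 5028. The fitted log2 fold change was -0.15 (SE 0.10), a fold change of 0.899 with a 95% interval of 0.775 to 1.04, and was not called (limma, adjusted p = 0.567). In the co-treated mice, Nr3c1 was at 5202, 4831 and 4820 in VERCUR-WT and at 4439, 6084 and 4720 in VERCUR-CD. VERCUR-CD 2 was the highest of all 12 mice, and these groups overlapped.

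Nr3c2 (chromosome 8, 76899442 to 77245012, GRCm38, plus strand) was at 1534, 1331 and 1651 in VEH-WT and at 1484, 1557 and 1407 in VEH-CD. The VEH-CD mice lay inside the range of the VEH-WT mice, and the fold change was 0.988 with a 95% interval of 0.826 to 1.18 (limma, adjusted p = 0.968). In VERCUR-WT its values were 1715, 1376 and 1514, and in VERCUR-CD 1391, 1918 and 1575. VERCUR-CD 2 was again the highest of the 12, followed by VERCUR-WT 1, and these 2 mice were the top 2 for 7.84% of all genes tested.  The gene Gm10649, on the opposite strand, overlaps an exon at the start of Nr3c2, and without a stated strand of the libraries their reads cannot be told apart there.

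Fkbp5 (chromosome 17, 28399094 to 28517527, minus strand) encodes FKBP51, the co-chaperone named above. Its normalized counts were 1179, 1605 and 1397 in VEH-WT, 1372, 1306 and 1550 in VEH-CD, 1219, 1213 and 1469 in VERCUR-WT, and 1284, 1191 and 1476 in VERCUR-CD. All 4 groups overlapped, with means between 1300 and 1409. The fold change in VEH-CD against VEH-WT was 1.02 with a 95% interval of 0.846 to 1.22 (limma, adjusted p = 0.954). VEH-WT held both the lowest and the highest of the 12 mice.

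Sgk1 (chromosome 10, 21882184 to 21999903, plus strand) encodes a serine/threonine kinase that is induced by serum and glucocorticoids and regulates ion channels and transporters. RefSeq lists several start sites for it, and 6 windows upstream of them, each of 250 bases, were searched on both strands for the palindromic glucocorticoid response element (AGAACA, any 3 bases, TGTTCT) and for its half-site AGAACA, each full match also holding 2 half-sites. The full element was found in 1 of the 6 windows, at 189 to 175 bases before the start, and a half-site alone in 2 more. Over the 32851 upstream windows of all genes in the same table, 3 (0.00913%) held the full element and 16.1% a half-site. Only exact matches in these 250 bases were counted, so elements that differ from them or lie elsewhere would be missed. Half-sites were found for 2 of the 8 genes searched, Sgk1 and Tsc22d3, in 4 of 16 windows. The window with the full element is shown because no other window of the 8 genes held it. It lies at chr10:21993640-21993889 (GRCm38.p6, plus strand, RefSeq), inside the gene as GENCODE M21 draws it but in no exon, and capitals mark the full element and a further half-site:
Sgk1: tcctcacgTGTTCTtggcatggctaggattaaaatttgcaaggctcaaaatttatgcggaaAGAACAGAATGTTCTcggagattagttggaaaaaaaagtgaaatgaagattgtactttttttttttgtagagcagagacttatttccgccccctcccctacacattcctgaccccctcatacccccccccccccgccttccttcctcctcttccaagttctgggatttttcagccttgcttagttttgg

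The RNA of Sgk1 was at 2464, 4605 and 5065 in VEH-WT and at 2279, 1933 and 2450 in VEH-CD. VEH-WT 2 and 3 stood far above all 3 VEH-CD mice, whereas VEH-WT 1 stood next to the highest of them, and the groups did not overlap. The log2 fold change was -0.80 (SE 0.24), a fold change of 0.573 with a 95% interval of 0.402 to 0.817. At an unadjusted p of 0.00493 it ranked 384 of 17111 genes, and it was not called (limma, adjusted p = 0.218). Leaving out VEH-WT 1 moved the log2 fold change to -1.13 and the adjusted p to 0.0219, so that Sgk1 was then called, and leaving out VEH-WT 3 moved it to -0.61 with an adjusted p of 0.515 (limma).

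In the co-treated mice, Sgk1 was at 1702, 1845 and 2794 in VERCUR-WT and at 2166, 2300 and 2423 in VERCUR-CD. The 3 VERCUR-CD mice lay inside the range of the VERCUR-WT mice. The fold change of VERCUR-CD against VERCUR-WT was 1.11 with a 95% interval of 0.78 to 1.59 (limma, adjusted p = 1). Sgk1 had the lowest 2 of its 12 values in VERCUR-WT and the highest 2 in VEH-WT.

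Tsc22d3 (chromosome X, 140539528 to 140600659, minus strand) encodes GILZ, a leucine zipper protein and is a widely used marker of glucocorticoid action. Of its 3 upstream windows, 1 held a half-site, on the opposite strand at 185 to 180 bases before the start. It is shown, with the half-site in capitals, as the only match to either form in Tsc22d3, up to the first base that GENCODE M21 places in an exon (chrX:140600660-140600772, GRCm38.p6, minus strand, RefSeq):
Tsc22d3: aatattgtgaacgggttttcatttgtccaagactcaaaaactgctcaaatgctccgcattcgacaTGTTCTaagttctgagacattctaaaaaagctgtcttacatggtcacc

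The normalized counts of Tsc22d3 were 3221, 4665 and 4533 in VEH-WT and 2773, 2221 and 2920 in VEH-CD. As for Sgk1, VEH-WT 2 and 3 stood well above all others, VEH-WT 1 lay nearer to VEH-CD, and the groups did not overlap. The log2 fold change was -0.64 (SE 0.16), a fold change of 0.642 with a 95% interval of 0.502 to 0.819, at an unadjusted p of 0.00183 and rank 196 (limma, adjusted p = 0.159). In VERCUR-WT the gene was at 2356, 2457 and 3446 and in VERCUR-CD at 2869, 2774 and 3105. These groups overlapped, with a fold change of 1.07 and a 95% interval of 0.841 to 1.37 (limma, adjusted p = 1).

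Errfi1 (chromosome 4, 150853919 to 150868892, plus strand) encodes MIG6, an inhibitor of receptors of the EGF receptor family. Neither of its 2 upstream windows held a glucocorticoid element or half-site. The window at chr4:150854820-150855069 (GRCm38.p6, plus strand, RefSeq) held the palindrome TGACGTCA, the cyclic AMP response element, at 51 to 44 bases before the start, which 1.55% of all windows held. It is shown with that element in capitals because it was the only one of the 16 windows searched that held it:
Errfi1: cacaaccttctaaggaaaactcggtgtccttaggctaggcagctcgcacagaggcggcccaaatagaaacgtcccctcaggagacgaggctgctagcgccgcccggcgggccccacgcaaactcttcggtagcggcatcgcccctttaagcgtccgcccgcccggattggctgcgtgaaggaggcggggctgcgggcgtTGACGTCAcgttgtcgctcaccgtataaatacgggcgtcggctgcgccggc

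Errfi1 had normalized counts of 1234, 1655 and 1369 in VEH-WT and of 984, 1089 and 1078 in VEH-CD. The groups did not overlap, and the CV of the VEH-CD mice was 5.5%. The log2 fold change was -0.42 (SE 0.11), a fold change of 0.745 with a 95% interval of 0.635 to 0.874, at an unadjusted p of 0.00166 and rank 178, the smallest p among the 10 genes (limma, adjusted p = 0.158). In VERCUR-WT it was at 1073, 1065 and 1203 and in VERCUR-CD at 1091, 1290 and 1098, and these groups overlapped. The antisense gene 1700045H11Rik overlaps an exon of Errfi1 on the other strand, so a part of the reads could be of either.

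Zbtb16 (chromosome 9, 48654297 to 48836222, minus strand) encodes PLZF, a zinc finger repressor that glucocorticoids induce in several tissues. Its values were 1353, 2028 and 1977 in VEH-WT, 1298, 1491 and 1361 in VEH-CD, 1566, 1587 and 1347 in VERCUR-WT, and 1294, 2055 and 1292 in VERCUR-CD. VERCUR-CD 2 was the highest, followed by VEH-WT 2 and 3, and VEH-WT overlapped each other group. In vehicle mice the log2 fold change of CD against wild type was -0.35 (SE 0.18), with an adjusted p of 0.48 (limma).

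Plin4 (chromosome 17, 56100591 to 56109803, minus strand) encodes perilipin 4, a coat protein of lipid droplets, and was the least expressed of the 10. Its values were 62.8, 146.6 and 185.1 in VEH-WT, 76.6, 53.0 and 152.1 in VEH-CD, 39.2, 95.4 and 177.7 in VERCUR-WT, and 89.0, 56.7 and 107.8 in VERCUR-CD. All 4 groups overlapped, with a CV of 30.6 to 66.9% within groups. As few as 33 reads were counted in a mouse, a counting error of 17.4%. A protein-coding gene on the opposite strand, Hdgfl2, overlaps an exon of Plin4 at its end. The interval of its fold change in VEH-CD against VEH-WT, 0.317 to 1.61, was the widest of the 10.

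Mt1 and Mt2 encode metallothioneins, small proteins that bind zinc and copper and are induced by metals as well as by glucocorticoids. They lie 5513 bases apart on chromosome 8, Mt2 at 94172664 to 94173568 and Mt1 at 94179082 to 94180327, both on the plus strand. The core of the metal response element was searched as TGCACNC or TGCGCNC on both strands. Of the 8 genes searched, 3 had it (Mt1, Mt2 and Nr3c2), in 3 of 16 windows, beside 21.4% of all windows. It occurred in the upstream window of both metallothionein genes. Both are shown with the cores in capitals because the pair is known for its shared response to metals, Mt1 at chr8:94178839-94179081 up to its first exon in GENCODE M21 and Mt2 at chr8:94172368-94172617 (GRCm38.p6, plus strand, RefSeq):
Mt1: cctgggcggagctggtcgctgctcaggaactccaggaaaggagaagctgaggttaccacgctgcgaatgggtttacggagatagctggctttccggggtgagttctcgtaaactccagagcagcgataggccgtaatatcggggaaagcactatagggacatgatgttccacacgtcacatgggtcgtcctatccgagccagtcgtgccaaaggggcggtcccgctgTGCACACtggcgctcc
Mt2: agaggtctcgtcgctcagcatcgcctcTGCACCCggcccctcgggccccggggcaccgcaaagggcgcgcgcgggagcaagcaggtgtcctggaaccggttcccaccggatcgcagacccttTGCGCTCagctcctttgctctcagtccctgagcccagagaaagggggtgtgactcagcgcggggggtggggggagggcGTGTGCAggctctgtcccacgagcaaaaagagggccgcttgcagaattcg

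Mt1 was at 5382, 4964 and 6088 in VEH-WT, 6391, 4402 and 6604 in VEH-CD, 5156, 7168 and 6384 in VERCUR-WT, and 6921, 4990 and 6594 in VERCUR-CD. Mt2 was at 2220, 2179 and 2728 in VEH-WT, 2674, 1719 and 2786 in VEH-CD, 2081, 2998 and 2826 in VERCUR-WT, and 3435, 2227 and 3237 in VERCUR-CD. For both genes all groups overlapped, and VEH-CD 2 was the lowest of the 12 mice. In VEH-CD against VEH-WT the fold change was 1.05 for Mt1 (95% interval 0.811 to 1.35) and 0.99 for Mt2 (0.727 to 1.35). Of the 8 comparisons, Mt2 had its highest log2 fold change in VERCUR-CD against VEH-CD, at 0.32 with a 95% interval of -0.13 to 0.76 (limma, adjusted p = 0.867). The 2 genes are close paralogs, so reads could be split between them, and the antisense gene Gm45774 spans most of the Mt2 locus, so that their reads cannot be told apart.

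Per kilobase of exon, the mean normalized count over the 12 mice was highest for Mt1 (4751) and Mt2 (4409), followed by Tsc22d3 (717), Nr3c1 (652), Sgk1 (544), Errfi1 (331), Zbtb16 (294), Nr3c2 (238), Fkbp5 (143) and Plin4 (17.9). This order rests on all annotated exons of GENCODE M21, which differ in use between transcripts. Per kilobase, Nr3c1 was thus above Nr3c2.

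In VERCUR-WT against VEH-WT, the comparison of co-treatment in wild-type mice, 0 of the 10 genes were called (limma) and neither was any other gene (0%). Unadjusted p-values were under 0.05 for 3 of the 10, again Sgk1, Tsc22d3 and Errfi1, beside 5.22% of all genes in either direction and 3.25% lower. The log2 fold change was -0.90 (SE 0.24) for Sgk1, -0.59 (SE 0.16) for Tsc22d3 and -0.34 (SE 0.11) for Errfi1, with adjusted p-values of 0.867, 0.944 and 0.944 (limma). By unadjusted p Sgk1 ranked 42 and Tsc22d3 57 of 17111. For Sgk1 and Tsc22d3, VERCUR-WT 3 lay above VEH-WT 1, so that the groups overlapped, and the groups of Errfi1 did not (9.72% of all genes did not overlap). The comparison shares its VEH-WT mice with that of VEH-CD, including the high VEH-WT 2 and 3, so the like values in both are not independent.

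VERCUR-CD against VEH-WT also shares those mice. There 0 of the 10 were called (limma), beside 0.199% of all genes, and 3 had an unadjusted p under 0.05 (8.68% of all genes), again Sgk1 at -0.75 (SE 0.24), Tsc22d3 at -0.49 (SE 0.16) and Errfi1 at -0.28 (SE 0.11) on the log2 scale. The groups did not overlap for Sgk1 and Tsc22d3, beside 13.9% of all genes. Without VEH-WT 1, Sgk1 was called here too, at -1.07 and an adjusted p of 0.0297 (limma).

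The genotypes on the co-treatment and the treatments in CD mice were compared without VEH-WT. In VERCUR-CD against VERCUR-WT, 0 of the 10 were called (limma), beside 0.146% of all genes, 0 had an unadjusted p under 0.05 (4.1% of all genes), the groups overlapped for all 10 (7.74% of all genes did not overlap), and the log2 fold changes ran from -0.10 to 0.16. In VERCUR-CD against VEH-CD, 0 of the 10 were called (limma) and 0% of all genes, 0 of the 10 had an unadjusted p under 0.05 (3.54% of all genes), and the range was -0.10 to 0.32. Errfi1 was the 1 gene whose groups did not overlap there (8.34% of all genes), with the VERCUR-CD mice at 1091 to 1290 narrowly above the VEH-CD mice at 984 to 1089, a fold change of 1.1 with a 95% interval of 0.939 to 1.29. For Sgk1 the interval in VERCUR-CD against VEH-CD was 0.728 to 1.48, which does not show the groups to be alike.

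**Figure D2:**
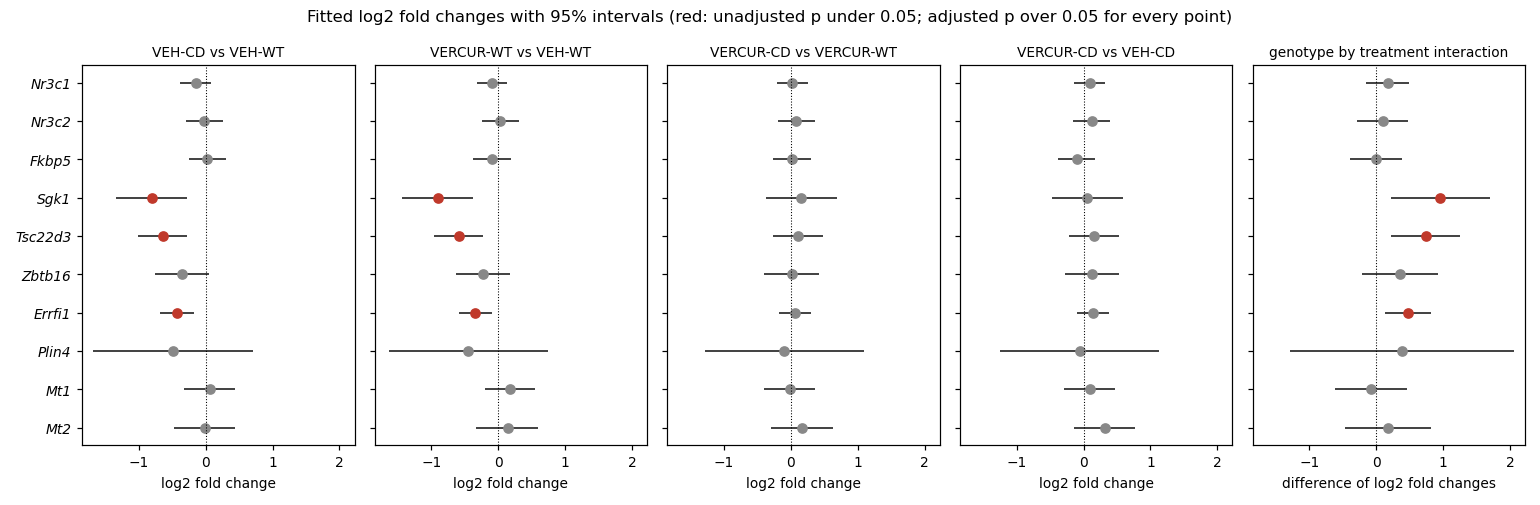
Fitted log2 fold change (horizontal axis; for the last panel the difference of 2 log2 fold changes) of the 10 genes in 4 comparisons and in the interaction of genotype and treatment; points are estimates, bars 95% intervals, and red marks an unadjusted p under 0.05. Sgk1, Tsc22d3 and Errfi1 are left of 0 in the panels of VEH-CD and VERCUR-WT against VEH-WT, have intervals that include 0 in both panels without VEH-WT, and are right of 0 in the interaction (0.96, 0.74 and 0.48), and the bars of Plin4 are the widest.

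Whether the genotype difference itself differed between treatments was tested as an interaction, for which 0 of the 10 genes and 0% of all genes were called (limma). The interaction was 0.96 (SE 0.33) for Sgk1, 0.74 (SE 0.23) for Tsc22d3 and 0.48 (SE 0.15) for Errfi1 on the log2 scale, at unadjusted p-values of 0.0136, 0.00688 and 0.00735. The adjusted p was 0.816 for each (limma). Unadjusted, 3 of the 10 were under 0.05, all positive, beside 6.05% of all genes in either direction and 3.72% positive. With genotype averaged over both treatments, 0 of the 10 were called (limma), beside 0.321% of all genes. Tsc22d3 at -0.27 and Errfi1 at -0.18 were the 2 with an unadjusted p under 0.05 (9.64% of all genes), while Sgk1 was at -0.33 with an unadjusted p of 0.0741. With treatment averaged over both genotypes, 0 of the 10 and 0% of all genes were called (limma), and Sgk1 at -0.42 was the 1 gene with an unadjusted p under 0.05 (2.96% of all genes). That value averages -0.90 in wild-type and 0.05 in CD mice. The interaction and both averaged comparisons include the VEH-WT mice, so their values are not independent of those above.

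**Figure D3:**
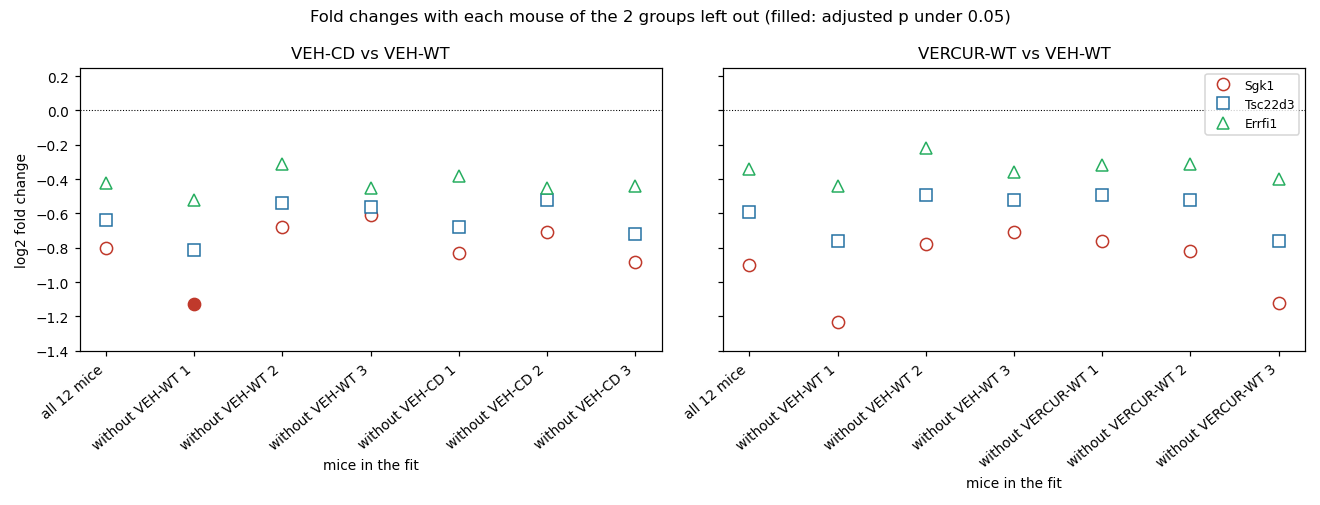
Log2 fold change (vertical axis) of Sgk1, Tsc22d3 and Errfi1 in VEH-CD against VEH-WT (left) and VERCUR-WT against VEH-WT (right), with all mice and with each mouse of the 2 groups left out; filled symbols have an adjusted p under 0.05 (limma). All values are below 0, and the 1 filled symbol is Sgk1 without VEH-WT 1, at -1.13.

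Over the 12 mice, Sgk1 and Tsc22d3 had the highest correlation of the 45 pairs of these genes before the group means were taken out. Their Pearson r on the log2 scale was 0.97 (permutation p = 3e-05, adjusted over 45 pairs p = 0.000675) and their Spearman rho 0.94 (permutation p = 4e-05, adjusted p = 0.0018). Without VEH-WT 2 and 3, the 2 mice farthest from the median of Sgk1, r was 0.92, and after the group means were taken out it was 0.94. The relation of Sgk1 with Errfi1 had r = 0.81 and rho = 0.77 (adjusted permutation p = 0.0245 and 0.0439), which dropped to 0.43 without those 2 mice, so that it rests on them, and was 0.58 over all mice after the group means were taken out. The relation with Fkbp5 had r = 0.59 and rho = 0.51 (adjusted permutation p = 0.154 and 0.278) over all mice, and 0.80 after the group means were taken out. Of the 45 pairs, 10 had an adjusted permutation p under 0.05 for r. Among these was Plin4 with Sgk1 (r = 0.73), Tsc22d3 (0.74) and Fkbp5 (0.76), each at an adjusted permutation p of 0.0247. For rho the adjusted permutation p was 0.0509, 0.0439 and 0.0846. Without the 2 mice farthest from the median of the other gene, r with Plin4 was 0.69, 0.65 and 0.71.

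**Figure D4:**
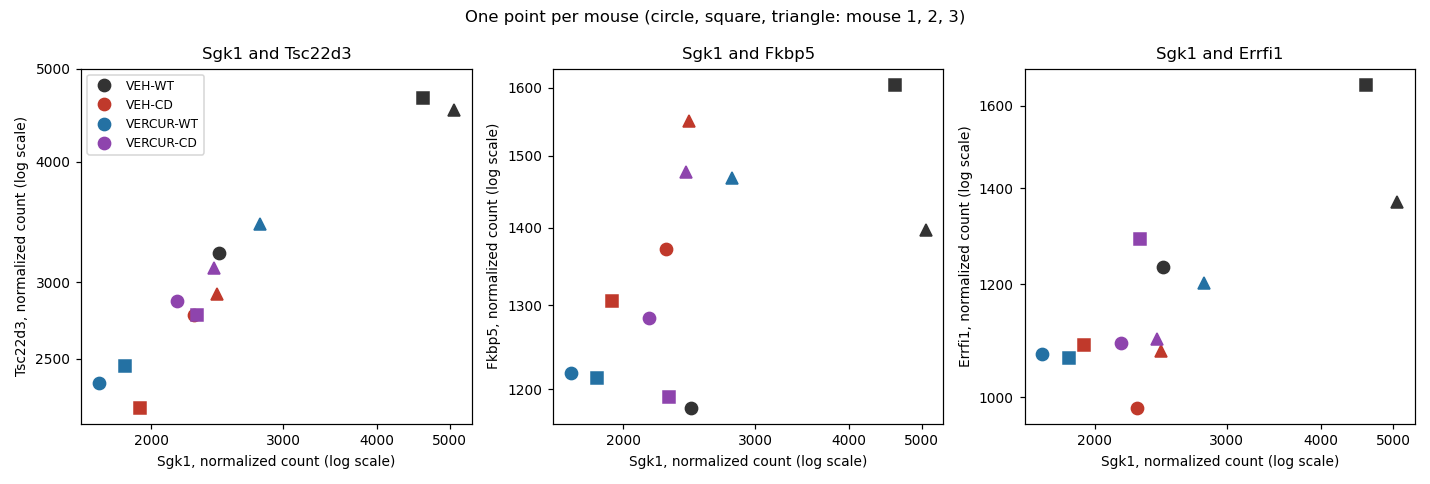
Normalized counts of Tsc22d3, Fkbp5 and Errfi1 (vertical axes, log scale) against Sgk1 (horizontal axes, log scale), 1 point per mouse, colored by group. Tsc22d3 follows Sgk1 through all 12 mice (r = 0.97), whereas VEH-WT 3, the highest for Sgk1, lies in the middle of the range of Fkbp5 at 1397.

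Mt1 and Mt2 had r = 0.95 and rho = 0.89 (adjusted permutation p = 0.000675 and 0.00562). Their r was 0.92 without the 2 mice farthest from the median of Mt1, and 0.99 after the group means were taken out. Neither followed Sgk1, with r = -0.05 for Mt1 and 0.07 for Mt2 and rho = -0.15 and 0.07 (adjusted permutation p between 0.797 and 0.927). Zbtb16 and Nr3c1 had r = 0.84 and rho = 0.83 (adjusted permutation p = 0.00495 and 0.0226), with 0.82 when VERCUR-CD 2 and VEH-WT 2 were left out. Nr3c1 and Nr3c2 had r = 0.75 and rho = 0.55 (adjusted permutation p = 0.0247 and 0.267), which dropped to 0.38 without VERCUR-CD 2 and VEH-WT 3 and so rests on them, though r was 0.85 over all mice after the group means were taken out. All these values share the same 12 libraries and their scaling.

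VEH-WT 2 and 3 were both among the top 2 of the 12 mice for 3 of the 10 genes (Sgk1, Tsc22d3 and Errfi1), as they were for 3.25% of all genes tested. The commonest such pairs over all genes were VERCUR-CD 2 with VERCUR-WT 1 (7.84%) and with VEH-WT 3 (6.87%), so high values of VERCUR-CD 2 were not particular to these genes. The genes most like Sgk1 over the 12 mice by Pearson r, out of all tested, were Plekhf1 (0.945), Gm19439 (0.934), Adipor2 (0.927), Nfkbia (0.924) and Pim3 (0.914), and were picked for that likeness. Adipor2, an adiponectin receptor, was at 2960, 3533 and 3517 in VEH-WT and between 2337 and 3049 in the other 9 mice. Nfkbia, the inhibitor of NF-kappa B, was at 864, 1102 and 1186 in VEH-WT and between 666 and 881 in the other 9. Among those most like Fkbp5 were Gm20427 (0.880), Gm49284 (0.836), Endou (0.825) and Iqschfp (0.818).

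Of 22 other genes known to be induced by glucocorticoids, 21 were in the table, all of them tested (Lcn2 was not in it). In VEH-CD against VEH-WT, 19 were lower and 2 higher, with a median log2 fold change of -0.36, where 50.7% of all genes were lower and the median was -0.00. None of the 21 was called (limma, 0 at an adjusted p under 0.05), and 9 had an unadjusted p under 0.05, all lower: Per1, Ddit4, Klf9, Klf15, Cdkn1a, Nfkbia, Pdk4, Bcl6 and Irs2. Ddit4, Dusp1, Nfkbia and Txnip stand in pathway tables of the study that were chosen on these samples, so the list is not independent evidence of direction. The same holds for Sgk1 and Zbtb16 among the 10 genes, which stand in such tables too.

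Per1, a gene of the circadian clock with a known response to the hormone, was at 6254, 10644 and 5218 in VEH-WT and at 3844, 4480 and 3194 in VEH-CD. The groups did not overlap, and VEH-WT 2 was the highest of the 12 mice. Irs2, an adaptor of insulin signaling, was at 2737, 5297 and 3655 in VEH-WT and at 1885, 2593 and 1887 in VEH-CD, with a log2 fold change of -0.84 (SE 0.21) and an adjusted p of 0.158 (limma). Ddit4, an inhibitor of mTOR signaling, was at 1592, 1836 and 2220 in VEH-WT and at 1219, 1125 and 1475 in VEH-CD. Klf9, by contrast, was at 8930, 10302 and 10850 in VEH-WT and at 8841, 8256 and 9164 in VEH-CD, where the groups overlapped.

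**Figure D5:**
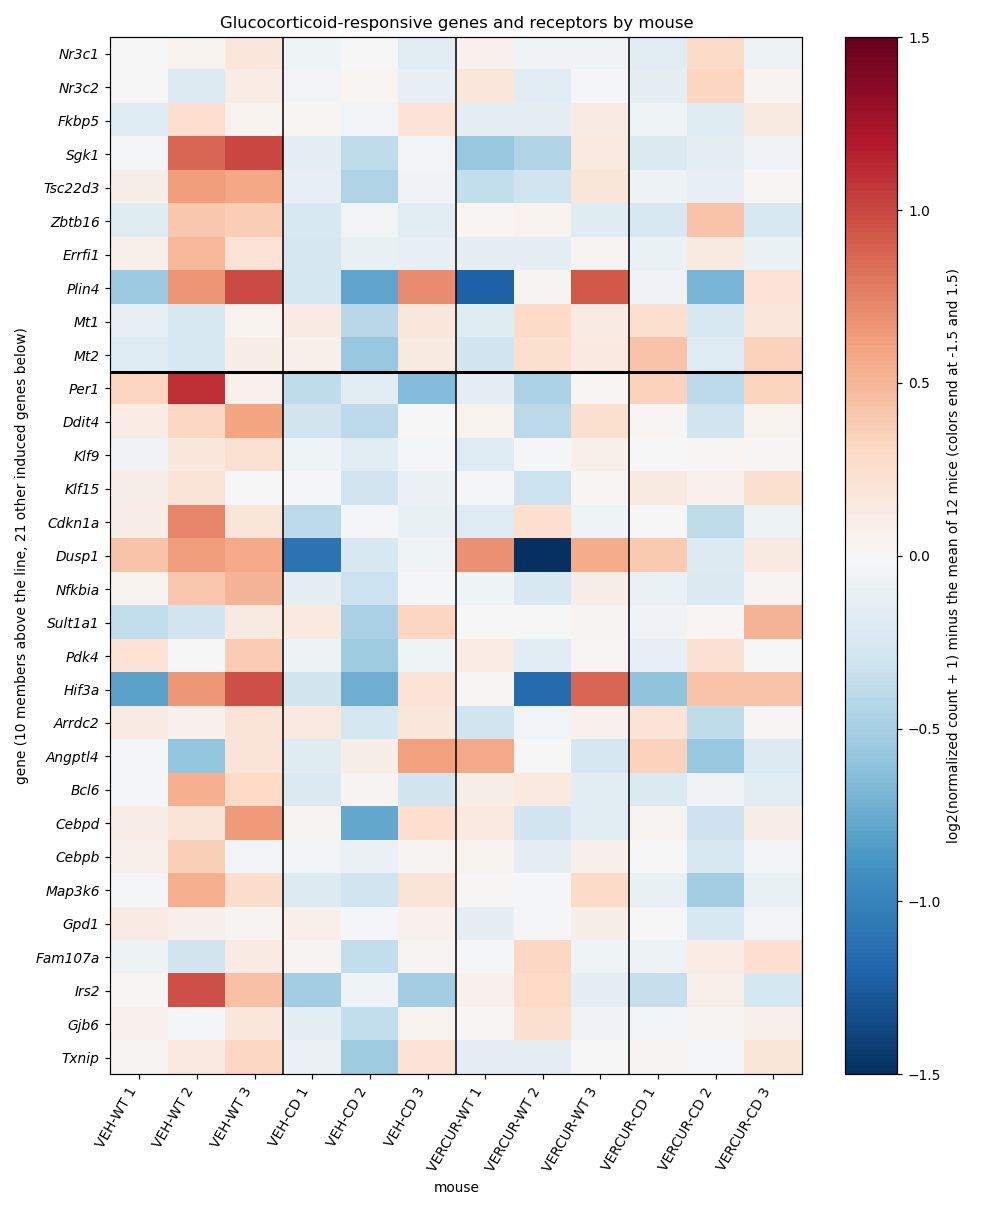
Level of the 10 genes (above the black line) and of the 21 other induced genes (below it) in each of the 12 mice, as log2(normalized count + 1) minus the gene's mean over the mice; red is above and blue below that mean. Sgk1 is strongly red in VEH-WT 2 and 3, Per1 and Irs2 in VEH-WT 2, and Plin4 in VEH-WT 3 and VERCUR-WT 3, while the rows of Nr3c1, Nr3c2 and Fkbp5 are pale.

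In VERCUR-WT against VEH-WT, 17 of the 21 were lower (median -0.21, 3 at an unadjusted p under 0.05), beside 50.5% of all genes. In VERCUR-CD against VEH-WT, 18 were lower (median -0.19, 7 at an unadjusted p under 0.05), beside 49.5% of all genes, and both comparisons share the VEH-WT mice. In VERCUR-CD against VEH-CD, 5 were lower and 16 higher (median 0.15, 1 at an unadjusted p under 0.05), where 49.2% of all genes were lower. In VERCUR-CD against VERCUR-WT, 10 were lower and 11 higher (median 0.02, 1 at an unadjusted p under 0.05), where 48.4% of all genes were lower. The interaction was negative for 3 and positive for 18 (median 0.36, 7 at an unadjusted p under 0.05), where it was negative for 48.5% of all genes. None was called in any of these (limma). In VEH-CD against VEH-WT, 18 or 19 of the list were lower when each VEH-WT mouse was left out in turn, a choice made after the data were seen, with medians of -0.42 to -0.28. Of the 10 genes, 8 were lower with all mice, 6 when VEH-WT 3 was left out, and 9 when either of the other VEH-WT mice was.

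Immediate early genes, which neuronal activity and handling are known to induce within minutes, were read beside these lists. In VEH-CD against VEH-WT, 10 of 10 were lower, with a median log2 fold change of -1.21. Of these, 8 had an unadjusted p under 0.05 and 0 were called (limma, lowest adjusted p = 0.057, for Egr4). Of all genes, 50.7% were lower, and 6.73% were lower at an unadjusted p under 0.05. All 10 were lower in VERCUR-WT and VERCUR-CD against VEH-WT (medians -0.79 and -0.97). Both share the VEH-WT mice, and 50.5% and 49.5% of all genes were lower in them. In VERCUR-CD against VEH-CD all 10 were higher (median 0.46, 0 at an unadjusted p under 0.05), where 49.2% of all genes were lower. In VERCUR-CD against VERCUR-WT, 5 were lower and 5 higher (median -0.01). Fos was at 1965, 3081 and 2587 in VEH-WT and at 278, 1279 and 819 in VEH-CD. The summed normalized count of the 10 was 57880 to 98910 in VEH-WT, 17090 to 39140 in VEH-CD, 29880 to 55120 in VERCUR-WT and 29810 to 49760 in VERCUR-CD, so that VEH-WT did not overlap any other group. VEH-WT 2 was the highest and VEH-WT 1 the lowest of its group. Without VEH-WT 1, 2 of these genes were called in VEH-CD against VEH-WT, beside 47 of all 17118 genes tested then. Nr4a1, on this list, stands in a pathway table of the study chosen on these samples. The list is thus not independent evidence of direction. The part of the immediate early genes in the values of Sgk1, Tsc22d3 and Errfi1 was not tested.

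Of the receptor chaperones and coregulators, 9 of 11 were lower in VEH-CD than in VEH-WT, with a median of -0.07 and log2 fold changes of -0.22 to 0.02, 0 called (limma) and 1 at an unadjusted p under 0.05. Of 4 tested genes of local steroid metabolism and transport, Hsd11b1, the enzyme that regenerates active hormone inside cells, was at 698, 630 and 648 in VEH-WT and at 585, 425 and 570 in VEH-CD, without overlap and with a log2 fold change of -0.34 (limma, adjusted p = 0.351). Crh, the releasing hormone itself, was at 306, 262 and 272 in VEH-WT and at 201, 209 and 272 in VEH-CD, with an adjusted p of 0.408 (limma), and 0 of the 4 genes of its system were called.

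Of the family and substrates of SGK1, 5 of 6 were lower in VEH-CD, with a median of -0.13, and 0 had an unadjusted p under 0.05 (0 called, limma). Among 9 tested paralogs of the other genes, Plin3, another perilipin, was higher, at a log2 fold change of 0.43 (limma, adjusted p = 0.302), and 0 were called. Of the ERBB receptors that the product of Errfi1 inhibits, 3 of 4 were lower, with a median of -0.20, and 0 had an unadjusted p under 0.05 (0 called, limma). Of 4 genes of the metal response, 3 were higher and 1 lower, with a median of 0.01, and 0 were called (limma). The lower one was Mtf1, the transcription factor that binds metal response elements, at -0.30 (limma, adjusted p = 0.233).

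Marker lists of other cell types were read in the same way, and none of their genes was called in VEH-CD against VEH-WT (limma). The median log2 fold change was -0.16 for 6 oligodendrocyte markers, -0.02 for 6 astrocyte markers, 0.01 for 5 endothelial markers, 0.07 for 4 microglia markers, 0.02 for 4 striatum markers, -0.17 for 4 choroid plexus markers, -0.10 for 4 meningeal fibroblast markers and 0.36 for 5 red blood cell markers. Of all these lists, 1 gene at an unadjusted p under 0.05 was Gad1, a cortical neuron marker, at -0.20. In VERCUR-WT against VEH-WT, all 6 oligodendrocyte markers were lower, with a median of -0.49, and all 4 striatum markers, with a median of -0.94, both with 0 at an unadjusted p under 0.05. In VERCUR-CD against VEH-WT the same 6 oligodendrocyte markers (median -0.28) and 4 striatum markers (median -1.20) were lower too, and in VERCUR-CD against VEH-CD, where Sgk1 was at 0.05 on the log2 scale, all 6 (median -0.09) and all 4 (median -1.28), again with 0 at an unadjusted p under 0.05. The summed oligodendrocyte markers ran from 74950 to 193900 within VERCUR-WT, with the lowest in VERCUR-WT 1, which was also the lowest mouse for Sgk1 (1702). In VEH-WT they were at 171100, 137400 and 215100, where Sgk1 was at 2464, 4605 and 5065, so that VEH-WT 3 was the highest for both and VEH-WT 2, the lowest for the markers, was next to it for Sgk1. In VEH-CD the oligodendrocyte markers were at 163000, 128300 and 157400, where Sgk1 was at 2279, 1933 and 2450. In VERCUR-CD they were at 165100, 137800 and 115500, where Sgk1 was at 2166, 2300 and 2423, in the reverse order. The part of this makeup in the values of Sgk1 was not tested.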

How the data were processed

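The authors aligned paired-end reads of the 12 cortex libraries to GRCm38 with STAR 2.5.3a and deposited normalized counts per gene and mouse (read counts divided by 1 factor per mouse, with decimal commas). The counting program and the annotation release are not given in the sources used here. In each mouse, 100% of low values were whole multiples of 1 step, within 0.1 of a step, which gave the reads counted. The authors also deposited 2 tables of selected genes, not used here. Mice were grouped by their labels.

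Group means of log2(normalized count + 1) were fitted for the 4 groups in limma 3.58.1 (R 4.3.3), with an intensity trend, over 17111 genes with a mean of at least 10. Tests were two-sided. The interaction used the adjusted p alone. Correlations were tested with 100000 permutations of the 12 mice. The permutations ignored the groups, so their p-values also take in differences between groups. Correlations after the group means were taken out were not tested. Positions come from GENCODE M21 (GRCm38), and upstream windows from RefSeq (GRCm38.p6). Of the 10 genes, 8 were searched, with 16 windows. Zbtb16 matched no window, and windows on chromosome 18, which holds Nr3c1, were left out of the search.

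All 10 genes are reported. From each other list, genes called in any comparison, at an unadjusted p under 0.05 in VEH-CD against VEH-WT or over both treatments, or else of largest change, could be named, and the 5 genes most like Sgk1 and Fkbp5. A few genes that this rule names are not reported here. The genes, lists and this rule were chosen with earlier results of these data known. As alternatives, the pseudocount (0.1 or 5), the filter (none, or 50), the scaling (quantiles or medians), the trend, a replicate block, the groups fitted, a removal of outlying values after the CV limit of the study, the call rule and each single mouse were varied.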

Additional observations from a re-analysis of the deposited data

How the results depend on the processing

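With all mice, 0 of the 10 genes were called in each of the 8 comparisons, and the same held under both pseudocounts, both other filters, both other scalings, without the trend, with only the groups compared and with no fold change limit. Where the CV within a group reached 20%, dropping the mouse most distant from the median gave 5 genes in VEH-CD against VEH-WT, 4 in VERCUR-WT against VEH-WT, 4 in VERCUR-CD against VEH-WT, 1 for treatment over both genotypes and 3 for the interaction. This step removes the most extreme value of variable genes before the test, among them VEH-WT 1 for Sgk1, and it called 972 genes of all tested in VEH-CD against VEH-WT, where 44 were called without it. Calling by the unadjusted p, with the fold limits kept, gave 3, 2, 2, 1 and 3 genes in these comparisons. Leaving out each mouse in turn gave 0 to 1 genes in VEH-CD against VEH-WT and in VERCUR-CD against VEH-WT (Sgk1, without VEH-WT 1) and 0 in the others.

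Of 80 log2 fold changes of the 10 genes, 46 lay within 1 SE of 0, of which 34 changed sign under some alternative. Of the other 34, 1 changed sign, that of Nr3c2 in VERCUR-CD against VEH-CD, which was 0.12 with all mice and -0.00 to 0.23 when each mouse was left out.

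The mice share replicate numbers across groups, and the replicate block called 0 of the 10 genes in each comparison and 40 genes of all tested in VEH-CD against VEH-WT. Same-numbered mice did not deviate together (18 pairs, r of -0.35 to 0.27, median 0.02), so the numbers were not taken as pairs. The 2 count models planned on recovered reads were not run. With 3 mice per group, a missed threshold does not show that levels were alike.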
